A study of Mus musculus with 14 samples.

Results

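The teneurins and the giant Fat and Dachsous cadherins are very large adhesion proteins of the cell surface, and 9 of their genes, Tenm1, Tenm2, Tenm3, Tenm4, Fat1, Fat2, Fat3, Fat4 and Dchs1, were described here in P2 mouse brains of both genotypes, WT and Capn15 KO. They were taken by name from the 17927 genes of the count table, and all 9 were present. The genes were proposed with earlier results of these data known, their levels included. Beyond that, the only measured values they were chosen by are those behind the authors' filter of that table. The smallest total count of any gene in it was 145 over the 14 brains, and every gene had counts in at least 8 brains, whereas the lowest count of any of the 9 genes in any brain was 438 (Fat2). Every one of the 9 genes passed that filter.

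RNA-SEQ of total RNA from whole brain was done for 7 untreated WT and 7 untreated Capn15 KO mice at P2, postnatal day 2. Capn15 encodes Calpain-15, a cysteine protease of the small optic lobe family. The lines were made on C57BL/6J, and the methods name both a Capn15(lacZ-Neo) and a FLOXed Capn15 mouse without saying which gave these brains. The column names of the count table place the brains in 6 litters, called A to F here, with 4 brains in litter B and 2 in each of the others, and give 2 female and 5 male WT brains and 4 female and 3 male KO brains. Each KO brain has the same replicate number as a WT brain of its own litter, but 6 of the 7 pairs are of opposite sex, so that differences within those pairs hold both genotype and sex.

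Library totals lay between 37620954 and 70910163 counts, and 3 counts in the smallest library correspond to 0.0797 CPM, the unit of level used here, in which counts are scaled to the library size and TMM factor. Capn15 was at 25.4 ± 3.07 CPM in WT and 14.5 ± 2.67 CPM in KO brains (SD, n = 7), and it was lower in the KO brain in 6 of 7 pairs. The exception was litter F. Capn15 was at 18.7 CPM in the library labelled WT replicate 7, below all other WT libraries, and at 20.2 CPM in the library labelled KO replicate 7, above all other KO libraries, so both libraries of litter F went against their labels. The main results are therefore also given without litter F. The library of KO replicate 4 stood apart in the 10 brainstem and spinal cord markers, with a mean of 0.147 log2 CPM against 1.30 to 2.09 in the other 13 brains. The labels name the cell type as neurons, but markers of glia, vessels, choroid plexus and meninges were counted in every brain. In bulk tissue, fewer cells of a type and less RNA per cell cannot be told apart.

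Teneurins are single-pass proteins with epidermal growth factor repeats and a large extracellular tyrosine-aspartate repeat barrel. They bind one another and, across the synapse, the latrophilins, and the latrophilins also bind the FLRT proteins. They guide the matching of axons to their targets, for which Tenm3 in the visual pathway and the hippocampus is the best known case. Fat and Dachsous cadherins carry long rows of cadherin repeats. Fat4 and Dchs1 form a receptor and ligand pair between neighbouring cells, the counterpart of Fat and Dachsous in the fly, and act in planar cell polarity, in tissue growth and in the migration and proliferation of neural precursors. Fat1 works in cell junctions and actin dynamics, Fat2 is best known from cerebellar granule cells, and Fat3 shapes the dendrites of retinal and other neurons.

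The 9 genes share a long coding sequence, between 8.14 kb (Tenm3) and 14.94 kb (Fat4), which the choice of genes did not use. Positions are on GRCm38, with genes, exons and coding lengths from GENCODE M21, whose identifiers matched those of 17915 of the 17927 genes. The 4 teneurin genes are spread over long introns. Tenm1 (ENSMUSG00000016150) lies on chrX:42527866-43429126, Tenm2 (ENSMUSG00000049336) on chr11:36006656-37235964, Tenm3 (ENSMUSG00000031561) on chr8:48227682-48843951 and Tenm4 (ENSMUSG00000048078) on chr7:96171246-96911093, with Tenm4 on the plus strand and the others on the minus strand. Tenm1 is thus the only X-linked gene of the 9. Tenm2 is the longest of them, with 31 exons in its longest transcript over 1229.3 kb.

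Of the Fat genes, Fat1 (ENSMUSG00000070047) lies on chr8:44935447-45052257 on the plus strand, Fat2 (ENSMUSG00000055333) on chr11:55250609-55336564 on the minus strand, Fat3 (ENSMUSG00000074505) on chr9:15910189-16501285 on the minus strand and Fat4 (ENSMUSG00000046743) on chr3:38886940-39011985 on the plus strand. Dchs1 (ENSMUSG00000036862) is the most compact of the 9, with 34.7 kb on the minus strand of chr7:105752990-105787654. Exons of Tenm1, Tenm3, Tenm4, Fat1, Fat4 and Dchs1 share between 114 and 1490 bases with genes on the opposite strand. Whether the counts used strand is not given in the sources used here, so reads of these overlaps cannot be assigned to one of the genes. Exons of Tenm2, Fat2 and Fat3 share none.

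All 9 genes were expressed in every brain, and their levels per length spanned a wide range. Levels are compared between genes as CPM per kb of merged exons, over all 14 brains. Tenm3 was the highest with 32.9 ± 1.40 CPM per kb (SD, n = 14), followed by Tenm2 with 21.1 ± 1.88 and Dchs1 with 19.4 ± 2.52 CPM per kb. Next came 3 Fat genes at similar levels, Fat4 with 14.6 ± 1.67, Fat1 with 14.3 ± 1.27 and Fat3 with 13.97 ± 0.989 CPM per kb. Tenm1 followed with 12.1 ± 1.02 and Tenm4 with 7.74 ± 0.642 CPM per kb. Fat2 was far below the rest with 0.922 ± 0.128 CPM per kb.

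The ranges over the brains did not overlap between Tenm3 and Tenm2, between Tenm1 and Tenm4, or between Tenm4 and Fat2. The other neighbours in the order overlapped. Dchs1 was nevertheless above Fat4 in 14 of 14 brains and Fat3 above Tenm1 in 14 of 14 brains, whereas Fat4 was above Fat1 in 8 and Fat1 above Fat3 in 9 of 14 brains. The levels are a description, since the genes were chosen with their levels known. With the length of the longest transcript in place of merged exons, 4 genes changed rank, with Tenm1 moving ahead of the 3 similar Fat genes.

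**Figure D1:**
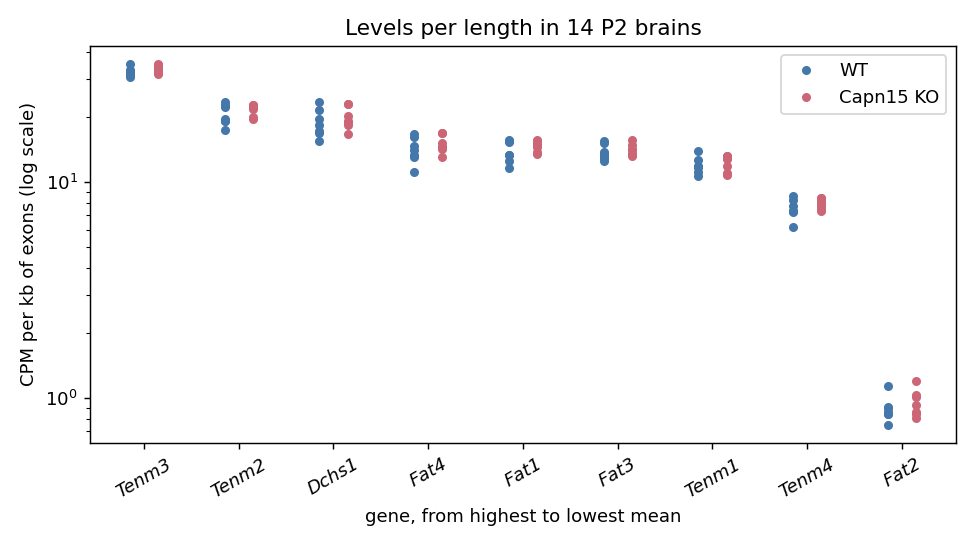
Level of each gene in CPM per kb of merged exons (vertical axis, log scale), with the genes from highest to lowest mean and 1 point per brain for 7 WT and 7 Capn15 KO brains. Tenm3 lies between 30.8 and 35.2 CPM per kb, above every other gene, and Fat2 lies between 0.752 and 1.20 CPM per kb, below every other gene.

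The comparison of KO with WT asks whether loss of Capn15 changed these mRNAs. None of the 9 genes passed the test. In each of them the fitted level was slightly higher in KO, by 4.24% (Tenm3) to 9.23% (Fat4), and the WT and KO ranges overlapped for all 9 genes. By edgeR's quasi-likelihood test with litter and sex in the fit and Benjamini-Hochberg adjustment over all genes, adjusted p lay between 0.318 and 1.0. At an adjusted p under 0.05, 0 of 9 genes were called, beside 0.00558% of all genes, which is 1 gene, Ptgds (named after its value was seen). The targeted gene Capn15 was itself not called, with a log2 fold change of -0.81 (SE 0.118, adjusted p = 0.0747 in the same test). This fit holds both libraries of litter F, whose Capn15 levels went against their labels. In the other litters Capn15 was at 24.98 CPM or above in every WT brain and at 14.5 CPM or below in every KO brain.

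Among the teneurins, Tenm2 ranged from 199 to 269 CPM with a median of 226 in WT, and from 224 to 262 CPM with a median of 256 in KO. Its mean was 236 ± 25.8 CPM in WT and 249 ± 15.7 CPM in KO (SD, n = 7), and the fitted log2 fold change was 0.11 (SE 0.0243, adjusted p = 0.318). The lowest WT value belonged to litter F, and the 2 highest WT values were close to the KO values of their own litter B. Tenm4 ranged from 131 to 180 CPM with a median of 154 in WT, and from 155 to 177 CPM with a median of 169 in KO, with a log2 fold change of 0.11 (SE 0.0286, adjusted p = 0.475). Both genes were higher in the KO brain in 6 of 7 pairs.

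Tenm3, the most abundant of the 9, ranged from 315 to 361 CPM with a median of 326 in WT and from 325 to 360 CPM with a median of 342 in KO. Its log2 fold change was 0.06 (SE 0.0227, adjusted p = 0.865), the smallest of the 9. The X-linked Tenm1 ranged from 189 to 246 CPM with a median of 209 in WT and from 192 to 235 CPM with a median of 226 in KO, and its log2 fold change was 0.07 (SE 0.0353, adjusted p = 1.0). The 2 lowest KO values of Tenm1 were those of litter B, the litter in which Tenm2 and Tenm4 were highest.

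Among the Fat cadherins, Fat4 had the largest fitted difference. It ranged from 191 to 287 CPM with a median of 241 in WT, and from 224 to 290 CPM with a median of 251 in KO, with a log2 fold change of 0.13 (SE 0.0352, adjusted p = 0.529). Fat1 ranged from 183 to 244 CPM with a median of 209 in WT and from 212 to 246 CPM with a median of 230 in KO. Its log2 fold change was 0.12 (SE 0.0268, adjusted p = 0.34), and it was higher in the KO brain in 4 of 7 pairs.

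For both genes the KO values lay inside or just above the WT range. For Fat1, 4 WT brains, of litters C, D, E and F, were below the lowest KO brain, and for Fat4 1 WT brain, of litter F, was. Fat3 ranged from 268 to 334 CPM with a median of 291 in WT and from 285 to 335 CPM with a median of 301 in KO, with a log2 fold change of 0.07 (SE 0.0331, adjusted p = 0.971). Fat2, the least abundant, ranged from 10.9 to 16.5 CPM with a median of 12.5 in WT and from 11.7 to 17.5 CPM with a median of 13.4 in KO, with a log2 fold change of 0.10 (SE 0.0504, adjusted p = 0.98). Its highest value in either genotype came from litter A.

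Dchs1, the ligand of Fat4, ranged from 172 to 260 CPM with a median of 204 in WT and from 184 to 253 CPM with a median of 213 in KO. The log2 fold change was 0.08 (SE 0.0276, adjusted p = 0.776), and it was higher in the KO brain in 6 of 7 pairs. Its paralog Dchs2, which is not one of the 9 genes, was at 22.2 ± 2.55 CPM in WT and 23.6 ± 1.24 CPM in KO (SD, n = 7), with a log2 fold change of 0.11 (SE 0.0501, adjusted p = 0.958 in the same edgeR test).

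**Figure D2:**
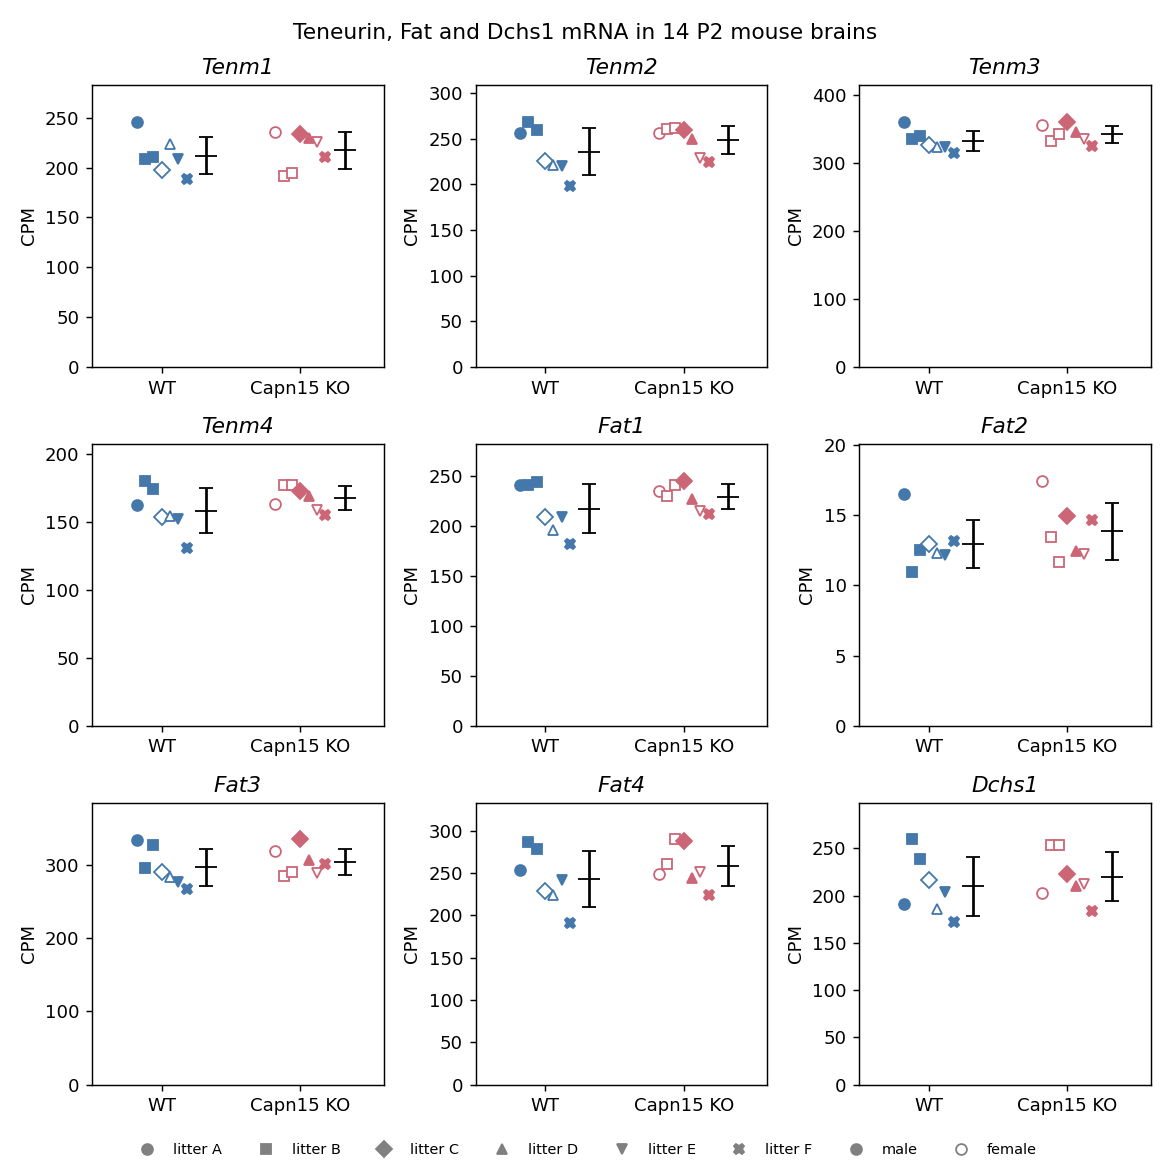
CPM (vertical axes, from 0) of the 9 genes in 7 WT and 7 Capn15 KO brains, with 1 point per brain, symbols for the litter, filled points for males and open points for females, and the mean ± SD beside each group. The WT and KO ranges overlap in every panel, and the litter F brain is the lowest WT brain for 8 of the 9 genes, Fat2 being the exception.

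Without any model, the difference of mean log2 CPM between genotypes was below the spread between brains for each gene. The two-sided exact permutation test over all regroupings of 7 against 7 brains, whose smallest p is 0.000583, gave p between 0.176 (Tenm3) and 0.578 (Tenm1), while the same test gave p = 0.00117 for Capn15. The two-sided exact sign-flip test over the 7 pairs, whose smallest p is 0.0156, gave p = 0.0312 for Dchs1 and p = 0.0469 for Tenm4 and larger values for the other genes, before any adjustment for 9 tests. With the 6 pairs left without litter F the sign-flip test could not have called any of the 9 genes, since each then had pairs of both signs, for which p is at least 0.0625. The fitted log2 fold changes without litter F lay between 0.05 and 0.11, and again 0 of 9 genes were called, beside 7 of all genes. Without KO replicate 4 they lay between 0.04 and 0.12, with 0 called and 5 at an unadjusted p under 0.05. This refit also takes WT replicate 4, then alone in litter C, out of the genotype estimate.

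At an unadjusted p under 0.05, 6 of the 9 genes were higher in KO (Tenm2, Tenm3, Tenm4, Fat1, Fat4 and Dchs1), beside 2.88% of all genes. A log2 fold change above 0 was found in 9 of 9 genes, beside 51.4% of all genes, and the median over the 9 genes was 0.10, beside 0.0015 over all genes. Since the 9 genes were proposed with earlier results of these data known, these shares and those for sex below are a description. These shares differed with coding length across the whole table. Of the 139 other genes with at least 10 CPM and a coding length of at least 8 kb, 88.5% had a log2 fold change above 0 and 31.7% were higher in KO at an unadjusted p under 0.05, with a median log2 fold change of 0.06.

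The median of other genes moved stepwise with coding length. It was -0.0040 for 2921 genes under 1 kb, -0.00085 for 3893 genes of 1 to 2 kb, 0.0067 for 2640 genes of 2 to 4 kb and 0.024 for 749 genes of 4 to 8 kb. Among these classes 45.0%, 49.0%, 58.3% and 75.03% of genes were higher in KO. The mean log2 CPM of the 139 long genes was 6.44 ± 0.0800 in WT and 6.49 ± 0.0435 in KO (SD, n = 7), with ranges of 6.33 to 6.54 and 6.42 to 6.56 that overlapped. With this mean as a covariate, added after the data had been seen, 4 of the 9 genes kept an unadjusted p under 0.05 (Tenm2, Tenm4, Fat1 and Dchs1, all higher in KO), beside 2.9% of all genes in that fit, and 0 were called. Tenm1 (log2 fold change -0.01) and Fat3 (-0.0064) then had the opposite sign, and the median over the 9 genes was 0.07.

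**Figure D3:**
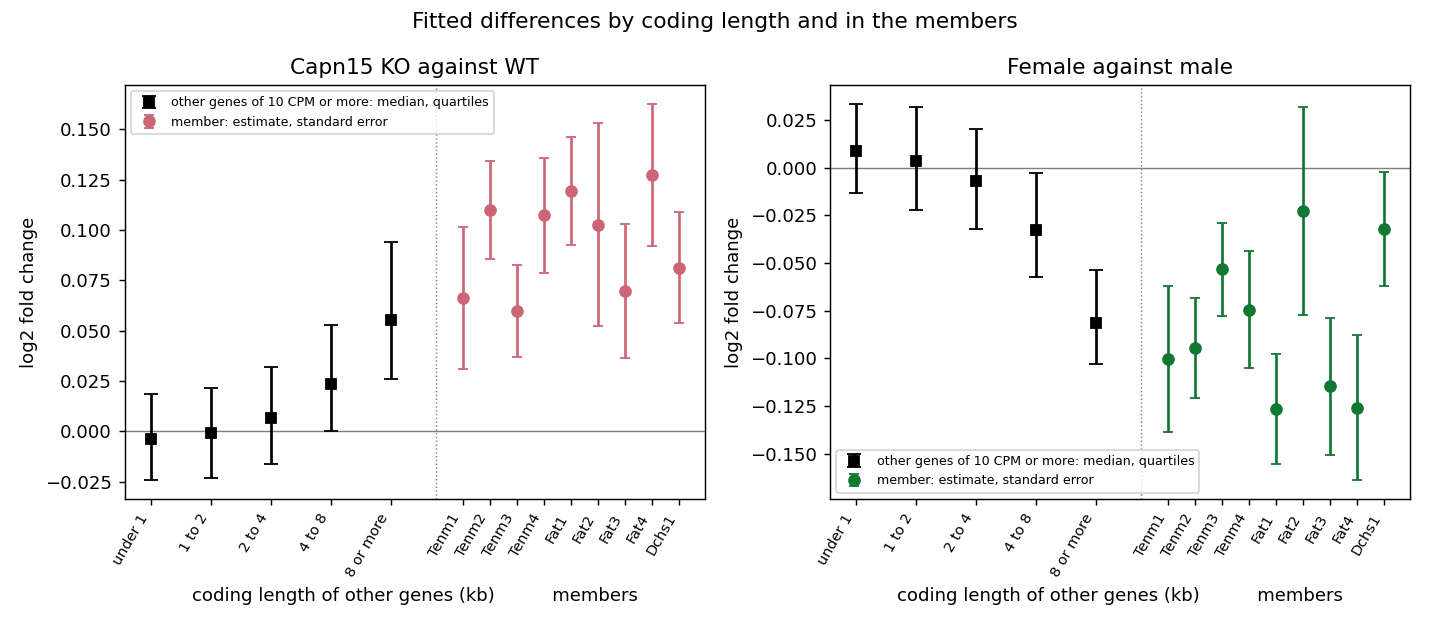
Fitted log2 fold change (vertical axes) of KO against WT and of females against males, as the median and quartiles of other genes with at least 10 CPM by coding length, and as estimate and standard error for the 9 genes. The medians of other genes go from -0.0040 under 1 kb to 0.06 at 8 kb or more for genotype and from 0.0090 to -0.08 for sex, and the 9 genes lie on the same side as the longest class.

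The comparison of the sexes used the same fit, in which sex was a covariate of the study. None of the 9 genes passed the test. The fitted level was lower in females in 9 of 9 genes, by log2 fold changes between -0.13 (Fat1) and -0.02 (Fat2), and 0 of 9 were called (edgeR adjusted p between 0.337 and 0.974), beside 0.0669% of all genes, which is 12 genes. A lower fitted level in females was also found in 89.2% of the 139 other long genes, beside 39.1% of the 2921 genes with a coding length under 1 kb. At an unadjusted p under 0.05, 7 of 9 genes were lower in females (all but Fat2 and Dchs1), beside 2.63% of all genes and 33.1% of the 139 other long genes. Without litter F, 0 of 9 genes were called for sex, beside 15 of all genes. In that fit 6 of 9 had an unadjusted p under 0.05, all lower in females, beside 873 of all genes in either direction.

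The raw values of the sexes were close, and the raw means did not all have the sign of the fit. Dchs1 was at 221 ± 27.5 CPM in females and 210 ± 29.2 CPM in males (SD). The raw means of Tenm2 and Tenm4 were also higher in females, and those of the other genes were lower. Tenm1, which is X-linked, was at 211 ± 19.0 CPM in 6 females and 217 ± 18.2 CPM in 8 males (SD), with ranges of 192 to 235 and 189 to 246 CPM that overlapped. Its fitted log2 fold change of -0.10 (SE 0.0381, edgeR adjusted p = 0.927) was inside the range of the autosomal genes of the group. Fat1 was at 221 ± 17.2 CPM in females and 225 ± 22.6 CPM in males, with a log2 fold change of -0.13 (SE 0.0289, adjusted p = 0.337 in the same test). The median log2 fold change over the 9 genes was -0.09, beside -0.08 for the 139 other long genes and 0.0090 for genes with a coding length under 1 kb. With the mean of the long genes as a covariate, 1 of 9 genes (Fat1, lower in females) kept an unadjusted p under 0.05, beside 1.75% of all genes in that fit.

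A difference between the sexes in the effect of genotype was tested with an interaction term. By edgeR's quasi-likelihood test 0 of 9 genes were called, beside 0.00558% of all genes, which is 1 gene, Capn15 itself. At an unadjusted p under 0.05, 1 of 9 genes was found, beside 6.84% of all genes, so that this share is near the background. It was Tenm4, with an interaction of -0.33 on the log2 scale (SE 0.138, edgeR adjusted p = 0.684). The likelihood ratio test, DESeq2 and limma-voom also called 0 of the 9 genes. The term can be estimated only through litter F, the 1 pair of brains of the same sex, and that is the pair whose Capn15 levels go against their labels.

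Litter was the variable with which all 9 genes changed when all 6 litters were in the fit. The joint test of the 5 litter coefficients (edgeR's quasi-likelihood F test, adjusted over all genes) called 9 of 9 genes, with adjusted p from 3.9e-05 (Dchs1) to 0.043 (Tenm3). The background was high, since 29.6% of all genes, 43.8% of the 2488 genes with at least 100 CPM and 48.9% of the 139 other long genes were called. The fitted span between the highest and lowest litter was 1.43-fold for Dchs1, 1.41-fold for Fat4 and 1.40-fold for Fat2, and it was smallest for Tenm3 with 1.14-fold. Without litter F, which was the lowest litter for 7 of the 9 genes, 7 of 9 genes were called, beside 27.5% of all genes. Tenm3 (edgeR adjusted p = 0.209) and Fat3 (0.0787) were then not called, and the span was 1.28-fold for Dchs1, 1.19-fold for Fat4 and 1.40-fold for Fat2.

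Dchs1 and its receptor Fat4 shared the litters at both ends. Dchs1 had a mean of 251 CPM in litter B, where its 4 brains lay between 239 and 260 CPM, and 178 CPM in litter F, where the 2 brains lay at 172 and 184 CPM. All 4 brains of litter B were above, and both brains of litter F below, every brain of the other litters. Fat4 had means of 279 CPM in litter B and 208 CPM in litter F, again with both brains of litter F below all others. Within litter B, the WT and KO brains overlapped for Dchs1, at 239 and 260 CPM in WT and 253 CPM in both KO brains.

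Tenm2, Tenm4 and Fat1 followed the same order at the ends. Tenm2 was at 263 CPM in litter B and 212 CPM in litter F, Tenm4 at 177 and 143 CPM, and Fat1 at 239 and 197 CPM. For Tenm2 and Tenm4, the 4 brains of litter B were above all other brains. The other 4 genes were highest in litter A instead. Tenm1 was at 241 CPM in litter A and 200 CPM in litter F, Tenm3 at 358 and 320 CPM, and Fat3 at 327 CPM in litter A and 283 CPM in litter E. Fat2 was at 17.0 CPM in litter A and was lowest, with 12.1 CPM, in litter B, the litter in which Dchs1 was highest.

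Markers of other cells moved with litter as well. All 8 genes of the oligodendrocyte lineage list were called for litter by the same test, beside 29.6% of all genes. This was not particular to that list, since 7 of 7 red blood cell and 11 of 14 radial glia and astrocyte markers were called too. The other marker lists lay between 4 of 12 (cerebellar granule cell) and 9 of 15 (neuron). Mbp, a major myelin protein, had a mean of 63.6 CPM in litter B against 135 CPM in litter A and 150 CPM in litter F, and Olig2, a transcription factor of the lineage, had 18.8, 24.98 and 27.2 CPM. Over the 14 brains, the mean log2 CPM of the 8 markers was inversely related to Dchs1, with Pearson's r = -0.936 (permutation p = 2e-05) and Spearman's rho = -0.974 (permutation p = 1e-05, the smallest that 100000 permutations can give). The adjusted p over 99 relations of the 9 genes with 10 marker lists and the long genes were 0.00099 and 0.0005. Without the 2 brains farthest from the median marker level r was -0.913, without litter F it was -0.919, and with litter means subtracted it was -0.41.

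Fat4 (r = -0.804, rho = -0.802, permutation p = 0.00037 and 0.00099, adjusted p = 0.0073 and 0.014) and Tenm4 (r = -0.745, rho = -0.736, permutation p = 0.0014 and 0.0037, adjusted p = 0.018 and 0.03) showed the same direction. Without the 2 farthest brains r was -0.762 for Fat4 and -0.713 for Tenm4, without litter F it was -0.766 and -0.727, and with litter means subtracted it was -0.655 and -0.442. Tenm2 had r = -0.624 and rho = -0.763, of which only the rank correlation passed (permutation, adjusted p = 0.0803 and 0.0253), and r was -0.47 without litter F. Fat1 had r = -0.568. Over the brains as measured, the remaining genes did not share this direction clearly. Fat2 had r = 0.558 and Tenm1 r = 0.272, which was 0.623 without litter F. Tenm3 and Fat3 had r of -0.163 and -0.0592, which were 0.172 and 0.15 without litter F. With litter means subtracted, r was -0.62 for Tenm1, -0.64 for Tenm3, -0.33 for Fat3 and -0.03 for Fat2. Tenm2 and Fat1 then had -0.57 and -0.48. The contrast of Tenm1 and Tenm3 with Dchs1 was thus not seen with litter means subtracted. Brains of a litter are not independent of each other, so that these p-values and those of the other marker lists below are too small. Litters of 2 brains allow no value within a litter. Subtracting the mean of such a litter leaves only the difference between its WT and its KO brain. The values with litter means subtracted therefore hold mainly differences of genotype and, in most pairs, also of sex. The part of oligodendrocyte lineage cells in the levels of these genes was not tested.

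Some other lists also moved with members of the group over the brains. Dchs1 had r = -0.777 and rho = -0.771 with neuron markers (permutation, adjusted p = 0.018 and 0.0253), which turned to r = 0.362 with litter means subtracted. With red blood cell markers it had r = 0.735 and rho = 0.82 (permutation, adjusted p = 0.031 and 0.0116), and r = 0.395 with litter means subtracted. Tenm2 (rho = 0.811) and Fat4 (rho = 0.745) passed with the red blood cell markers by rank (permutation, adjusted p = 0.0116 and 0.0302) and not by Pearson's r (adjusted p = 0.0654 and 0.0515). With radial glia and astrocyte markers, Dchs1 (r = -0.715) and Fat2 (r = 0.714) passed by Pearson's r (permutation, adjusted p = 0.0379 each) and not by rank (0.0733 each). Fat2 had r = 0.696 with endothelial and mural markers (permutation, adjusted p = 0.0423, and 0.138 by rank), which rested on 2 brains, since r was 0.301 without the 2 farthest from the median.

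**Figure D4:**
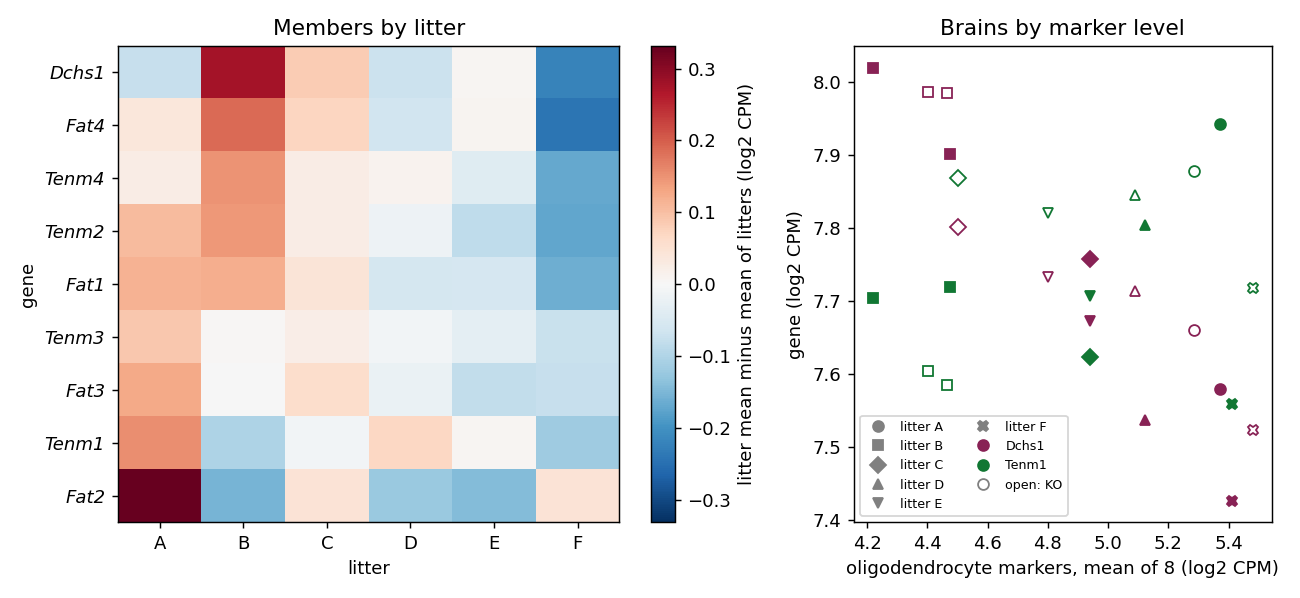
Left, litter mean of each gene minus its mean over the 6 litters (colour, log2 CPM). Right, log2 CPM of Dchs1 and Tenm1 in each of 14 brains (vertical axis) against the mean log2 CPM of 8 oligodendrocyte lineage markers (horizontal axis), with symbols for litters and open points for KO. Dchs1 is highest in litter B, where the markers are lowest, with r = -0.936 over the brains, and Tenm1 has r = 0.272. With litter means subtracted, r is -0.41 for Dchs1 and -0.62 for Tenm1.

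Many of the 9 genes moved together over the brains. Of 36 pairs, 10 had Pearson's r above 0.8 in log2 CPM, and 19 had an adjusted p under 0.05 by permutation tests adjusted over the 36 pairs. The closest pairs were Tenm2 with Fat1 (r = 0.966), Tenm2 with Tenm4 (r = 0.948), Tenm4 with Fat4 (r = 0.931) and Fat1 with Fat4 (r = 0.919), which were 0.943, 0.921, 0.864 and 0.859 without litter F. Tenm3 was close to Fat3 (r = 0.868) and Fat1 (r = 0.824), which were 0.876 and 0.76 without litter F. The receptor and ligand pair Fat4 and Dchs1 had r = 0.842 and rho = 0.837, with r = 0.756 without the 2 farthest brains, 0.755 without litter F and r = 0.525 with litter means subtracted. Fat2 with Dchs1 (r = -0.428) and Tenm1 with Dchs1 (r = -0.255) were negative, and without litter F they were -0.458 and -0.691, so that the size of the second rested on litter F.

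With litter means subtracted, both of these pairs were positive (r = 0.154 and 0.291). These values too hold mainly differences between the WT and KO brains of a litter, which in most pairs differ in sex as well. Most of the 9 genes also followed the mean log2 CPM of the 139 other long genes over the brains. Fat3 followed it most closely (r = 0.94, rho = 0.965, both with permutation p = 1e-05, the smallest possible, and r = 0.922 without the 2 farthest brains), whereas Dchs1 (r = 0.322) and Fat2 (r = 0.365) did so least. The correlations share the libraries, the litters and the coding length of the genes, and their source was not tested. Since brains of a litter are not independent of each other, the permutation p-values of the gene pairs and of the long genes are too small.

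**Figure D5:**
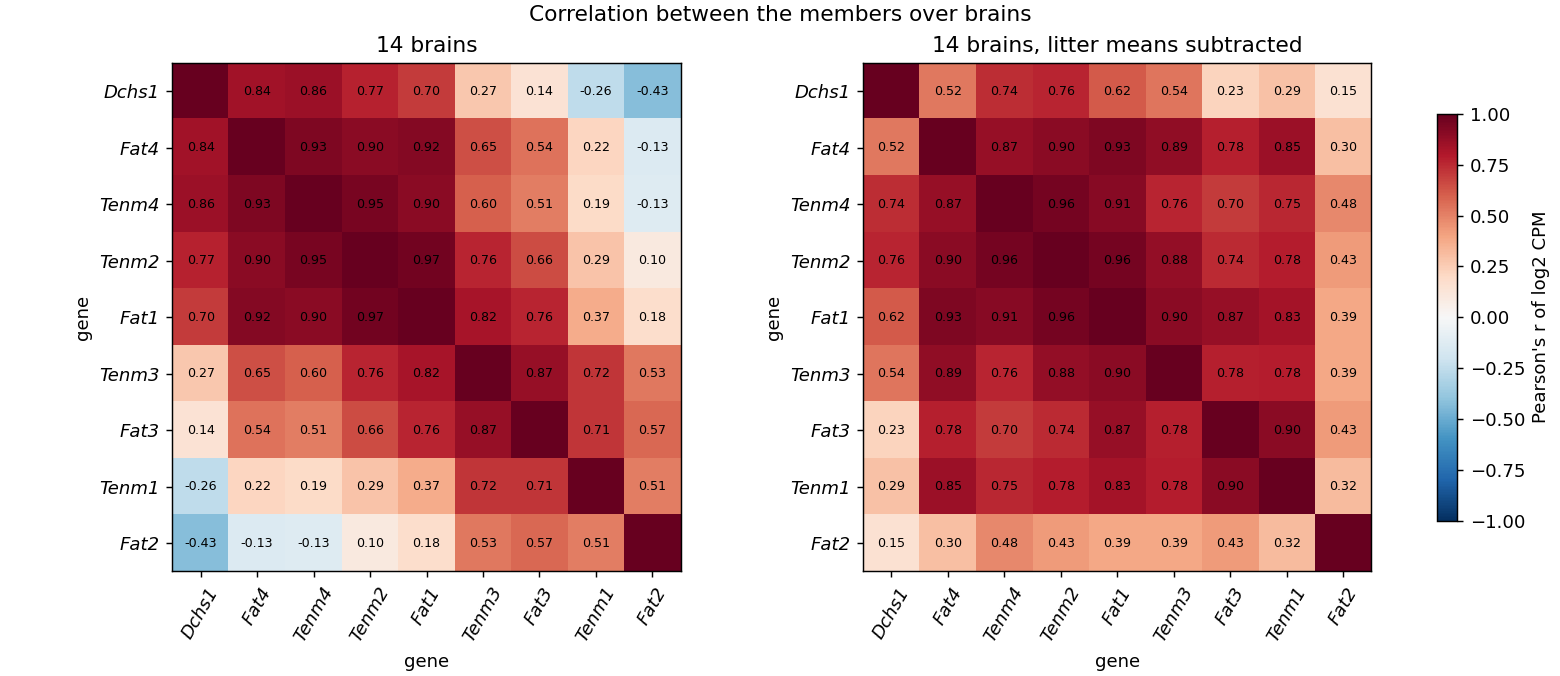
Pearson's r of log2 CPM between the 9 genes over 14 brains (colour and number), as measured on the left and with litter means subtracted on the right. On the left the pairs among Dchs1, Fat4, Tenm4, Tenm2 and Fat1 lie between 0.70 and 0.97 and Fat2 with Dchs1 is at -0.43, and on the right that pair is at 0.15. The values on the right hold mainly differences between the WT and KO brains of a litter.

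Among the 15226 other genes with a mean of at least 1 CPM, the gene most like each of the 9 over the 14 brains was found by Pearson's r of log2 CPM. It was Fat1 for Tenm2 and Tenm2 for Fat1 (r = 0.966). For Tenm1 it was Hivep1 (r = 0.933), for Tenm3 4932438A13Rik (r = 0.937), for Tenm4 Ep400 (r = 0.975) and for Fat2 Rab3gap1 (r = 0.876). For Fat3 it was Nav3 (r = 0.953), for Fat4 Faxc (r = 0.986) and for Dchs1 Ttc28 (r = 0.982). Of these genes Hivep1, 4932438A13Rik and Ep400 also have coding lengths above 8 kb, namely 8.06, 15.0 and 9.11 kb, as do Tenm2 and Fat1 themselves. Those of Ttc28, Nav3, Rab3gap1 and Faxc are 7.44, 7.10, 2.96 and 1.23 kb. Each r is the highest over 15226 genes in 14 brains and is a description.

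The partners and pathways of these proteins gave no called gene for genotype (edgeR, adjusted p under 0.05). Of 11 genes for latrophilins and their relative Adgrl4, FLRT proteins and the Unc5 receptors that FLRT proteins bind, 1 had an unadjusted p under 0.05. This was Flrt1, at 19.4 ± 1.57 CPM in WT and 20.9 ± 2.35 CPM in KO (SD, n = 7), with a log2 fold change of 0.11 and an edgeR adjusted p of 0.761. The median log2 fold change of the list was 0.04. Its next 2 genes by p, the netrin receptor Unc5a and Adgrl4, an adhesion receptor of endothelium, had log2 fold changes of 0.10 and 0.07.

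Of 17 regulators and effectors of Fat and Dachsous cadherins, 3 had an unadjusted p under 0.05, all with higher values in KO. These were Dlg5, a scaffold protein of cell polarity, with a log2 fold change of 0.14 (edgeR adjusted p = 0.47), Wasf1, an actin regulator of the WAVE complex, with 0.12 (adjusted p = 0.784), and Dchs2, given above. The median log2 fold change of the list was 0.03. Of 17 core genes of planar cell polarity, the pathway in which Fat4 and Dchs1 act, 2 had an unadjusted p under 0.05. They were the seven-pass cadherin Celsr2 with a log2 fold change of 0.13 (edgeR adjusted p = 0.857) and Dvl3 with 0.10 (adjusted p = 0.918), and Prickle2 came next with 0.05. Celsr2 shares the long coding sequence, 8757 bases, of the 9 genes.

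Of the 24 Hippo pathway genes tested, the growth pathway that Fat controls in the fly, 13 had a log2 fold change above 0 and 11 below, and the median was 0.0056. The transcription factors Tead1 (log2 fold change 0.13) and Tead4 (-0.41) and their cofactor Vgll4 (0.06) had an unadjusted p under 0.05, with edgeR adjusted p of 0.877, 0.951 and 0.954. Tead4 was low, at 0.753 ± 0.0985 CPM in WT and 0.618 ± 0.181 CPM in KO (SD, n = 7).

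The markers of cells that could contribute these mRNAs were compared in the same way. These lists, and those of partners and pathways above, were chosen with earlier results of these data known. Their counts are therefore a description and not independent support. Over all genes, 922 had an unadjusted p under 0.05 for genotype, 516 of them with higher values in KO. Choroid plexus markers were lower in KO at an unadjusted p under 0.05 in 10 of 12 genes, among them Ttr (log2 fold change -0.32, edgeR adjusted p = 0.0942), Enpp2 (-0.20, 0.166) and Kcnj13 (-0.31, 0.466), and their summed level ranged from 876 to 1131 CPM in WT and from 728 to 985 CPM in KO. The 1 choroid plexus marker above 0 was higher in KO at that level of p. Leptomeninges markers were lower in 4 of 15 genes, with Ogn (-0.39), Fmod (-0.55) and Slc6a13 (-0.14) first, and summed to 549 to 731 CPM in WT and 600 to 711 CPM in KO. Of the 15, 10 had a log2 fold change below 0 and 5 above. The lower markers had the opposite sign to the 9 genes, and their part in the differences of the 9 genes was not tested.

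Of 14 radial glia and astrocyte markers, the cells in which Fat4 and Dchs1 act in the embryonic cortex, 0 had an unadjusted p under 0.05, and their sum was 2616 to 3192 CPM in WT and 2823 to 3120 CPM in KO. Of 12 cerebellar granule cell markers tested, beside which Fat2 may be read, 1 did, Reln, with a log2 fold change of 0.12 and a coding length of 10383 bases. Of these markers, 8 had a log2 fold change below 0 and 4 above, with a median of -0.04. Their sum was 750 to 892 CPM in WT and 785 to 932 CPM in KO. The 15 neuron markers had a median log2 fold change of 0.02, and their sum was 8104 to 8541 CPM in WT and 8152 to 8513 CPM in KO.

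Of 10 brainstem and spinal cord markers, 10 had a log2 fold change below 0, with a median of -0.29, and 2 were lower in KO at an unadjusted p under 0.05 (Hoxc4 and Hoxb3). The sums were 34.7 to 58.7 CPM in WT and 20.4 to 61.6 CPM in KO, the lowest being KO replicate 4. Without that library, 4 of the 10 genes were below 0 and the median was 0.03. The direction thus rested on the pair of litter C, since WT replicate 4, left alone in its litter, then no longer informs the genotype estimate. KO replicate 4 was also the highest KO brain for Tenm3, Fat1 and Fat3. Of 10 microglia markers, 3 were higher (C1qb, C1qc and Trem2), with sums of 160 to 199 CPM in WT and 179 to 219 CPM in KO. Of 12 endothelial and mural markers, 1 was higher (Cldn5) and 1 lower (Acta2), with sums of 406 to 529 CPM in WT and 402 to 512 CPM in KO. Among 8 oligodendrocyte lineage markers and 7 red blood cell markers 0 had an unadjusted p under 0.05. Their sums were 353 to 619 CPM and 31.2 to 325 CPM in WT, and 387 to 628 CPM and 36.1 to 242 CPM in KO. No gene of any list was called, and no marker was at 0 in any brain.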

How the data were processed

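Total RNA of 14 whole P2 brains was depleted of rRNA and sequenced by the authors, who trimmed reads to a phred score of at least 30 with Trimmomatic, aligned them with STAR to GRCm38 and deposited raw counts per gene. The paper names HTSeq-count and the labels name featureCounts, and the paper and labels also name different library kits. The annotation release and gene filter are not given in the sources used here. Genotype and replicate number came from the labels, litter and sex from the column names. The authors' own comparisons were not used.

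Counts were tested with edgeR 4.0.16 in R 4.3.3 (quasi-likelihood test, TMM factors, genes with at least 1 count, genotype, sex and litter, Benjamini-Hochberg over 17927 genes, two-sided), and checked on simulated data. Log2 CPM values used a prior count of 2. DESeq2 1.42.0, limma 3.58.1 (voom), other scalings, filters and covariates, and each brain left out were alternatives. The 9 genes and the gene lists were chosen with earlier results of these data known. Named genes are the 9 genes, Capn15, up to 3 genes of each list by smallest p, and the gene most like each of the 9. The single-gene results of the neuron marker list are not reported here. Nothing says that same-numbered brains share more than the litter given by the column names; their deviations from genotype means correlated between -0.468 and 0.443. Python 3.11.15 with scipy 1.17.1 was used for permutation tests. The limit of 3 counts allows for counting error alone.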

Additional observations from a re-analysis of the deposited data

Results flagged for a closer look

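Capn15 stood apart in 2 libraries among the 20 groups of 7 brains examined with Dixon's test, where chance gives 1. The library labelled WT replicate 7 was the lowest WT brain, and its gap to the nearest WT brain was 0.762 of the WT range on the log2 CPM scale. The library labelled KO replicate 7 was the highest KO brain, with a gap of 0.648 of the KO range. Both gaps exceed the critical value of that test. Both brains belong to litter F. None of the 9 teneurin, Fat and Dachsous genes had a brain that stood apart by this measure, in WT or in KO.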

How the results depend on the processing

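None of the 9 genes was called for genotype or sex by the quasi-likelihood test under any alternative of scaling, filter, covariate or brains left out, nor by the likelihood ratio test or limma-voom. DESeq2 called 2 for genotype (Fat1 and Tenm2, adjusted p = 0.0456 each) and 1 for sex (Fat1, adjusted p = 0.0359). Over all genes, DESeq2 called 17 for genotype and 19 for sex. At an unadjusted p under 0.05, 6 genes for genotype became 0 with genotype alone and 0 with no litter term, and 5 to 8 with 1 brain left out. Over all genes, 922 became 260, 263 and 670 to 1448 in these settings. With litter in the fit, leaving out a brain from a litter of 2 also takes its litter mate out of the estimates for genotype and sex. For sex, 7 became 0 with no litter term, 1 with the long genes as a covariate, and 3 to 7 with 1 brain left out, the 3 being without WT replicate 4 or without KO replicate 4. The counts for sex over all genes were then 360, 807 and 605 to 2030. Signs turned for Tenm1 (-0.0145) and Fat3 (-0.0064) for genotype with the long genes as a covariate, and, for sex, for Fat2 without WT replicate 4 or KO replicate 4 (-0.067 to 0.0103 over the brains left out) and for Dchs1 (0.0524) with no litter term. With the replicate block in place of litter, 0 genes were called for genotype and 6 had an unadjusted p under 0.05, and 6 for sex in place of 7. Over all genes, 811 for genotype and 792 for sex had an unadjusted p under 0.05 with this block. Of all genes, the 1 call for genotype, Ptgds, was lost under this block, with 0 genes called. Litter calls lay between 7 and 9, the 7 being with no sex term, with the long genes as a covariate, and without litter F. With the longest transcript 4 genes changed rank, and sign-flip p-values under 0.05 went from 2 genes to 1 with library totals. Without litter F they went to 0, which 6 pairs with both signs in every gene made certain. The genotype by sex term could not be fitted without litter F. The cause of these changes was not tested.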
